A study of Homo sapiens with 6 samples.

Results

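ZNF335 binding was examined at the 5′ end of the ZNF335 gene itself, in the window chr20:44600000-44601300 of the hg19 build. The members are the peaks of any deposited list that overlap this window of 1301 bp, and there were 2 of 809 peaks in all. The WT list contributed 1 of its 634 peaks, the bloto list 1 of its 174 peaks, and the control list 0 of its 1 peak. The window was fixed by position, but the site was proposed with the peak values known, so its ranks are given as a description with no test. The headers of the WT and the bloto list set the genome browser to chr20:44588660-44612201, an interval that contains the window, so the depositors' own view opens on this site. No hg19 gene annotation was used here. The name of the site therefore rests on the given position of the gene's 5′ end, and whether a summit lies in an exon, an intron or upstream sequence is not stated.

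The study mapped tagged ZNF335 by anti-FLAG chromatin immunoprecipitation with sequencing (ChIP-seq) in Jurkat T-REx cells. Jurkat is an established human T cell leukaemia line, and its T-REx derivative carries a repressor that lets doxycycline switch on an introduced gene. One line expressed 3xFLAG-tagged wild-type ZNF335 (WT), another expressed 3xFLAG-tagged ZNF335 carrying the substitution R1092W (bloto), and a control line expressed no tagged protein. Per the labels' protocols, the tagged lines were stable clones selected for a co-expressed green fluorescent reporter, and expression was induced overnight. The series has 3 ChIP and 3 input samples with 1 library per condition, so no value has a replicate error and no difference between lines can be assigned to the substitution rather than to the clone or the library. The tagged protein was introduced and overexpressed, and the antibody reads only that protein.

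ZNF335, called Zfp335 in mouse, is a transcription factor with C2H2 zinc fingers arranged in separate arrays. It associates with histone methyltransferase complexes that act on promoters, is needed in neural progenitor cells, and in mouse the bloto allele impairs the T cell compartment. A factor bound at the promoter of its own gene is placed where it could act on its own expression. A ChIP-seq peak records occupancy and does not measure expression.

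The 250 bases upstream of the annotated ZNF335 start are shown because the peaks named for this gene's 5′ end were among the strongest of both lists. The sequence is RefSeq's, from the GRCh38.p14 build, and reads 5′ to 3′ in the direction of the gene. It was matched by gene symbol and was not placed against the hg19 peaks, so whether either summit falls inside it is not known. Capitals mark matches on either strand to 3 short words: the letters of the cAMP response element, of the TATA box and of the core of ETS family sites.
ZNF335 upstream sequence: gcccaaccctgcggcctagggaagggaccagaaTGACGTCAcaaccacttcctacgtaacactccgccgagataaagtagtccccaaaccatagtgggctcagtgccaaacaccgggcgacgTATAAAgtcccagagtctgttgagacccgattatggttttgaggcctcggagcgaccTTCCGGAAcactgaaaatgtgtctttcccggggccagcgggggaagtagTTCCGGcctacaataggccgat

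The sequence had a GC content of 56% and 16 CpG dinucleotides, against medians of 58% and 11 in the same stretch of 35116 RefSeq promoters. Both lay within the usual range, since 44.4% of the promoters had a lower GC content and 59.0% had fewer CpG dinucleotides. TGACGTCA, the full cAMP response element, began 217 bases upstream of the start and was present in 1.65% of the promoters. TATAAA, the letters of a TATA box, began 128 bases upstream and was present in 10.7%. TTCCGG, the core letters of many ETS family sites, matched 3 times, and 2 of these matches overlapped on opposite strands in the run TTCCGGAA. It was present in 14.5% of the promoters. The response element and the ETS word were picked after the sequence had been read. The CCAAT box had no match on either strand and was held by 32.0% of the promoters. The GC box letters GGGCGG also had none, against 42.6% of the promoters. The word TGCCTG had none, against 20.2%. A match describes letters only and marks no bound site.

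Both tagged forms gave 1 strong peak in the window, and the untagged control gave none. The WT peak was chr20:44600219-44601194, with its summit at 44600701, a width of 976 bp and a fold of 19.3. The bloto peak was chr20:44600390-44601053, with its summit at 44600712, a width of 664 bp and a fold of 16.5. The fold is the authors' enrichment over the local background of the same list, so the folds of the lists are not compared in size. The peak in WT had a −log10 p of 77.7 and a −log10 q of 70.6, and the peak in bloto had 64.8 and 55.4. The only control peak lay on chromosome 11, at chr11:66189134-66189404, with a fold of 4.59. How deeply the control was sequenced is unknown, so the absence of a control peak means that none was called.

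**Figure D1:**
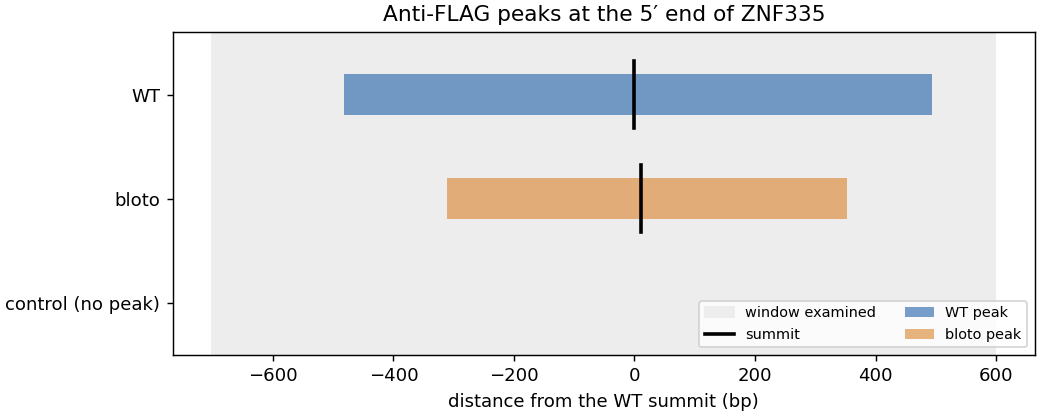
Extent of the peaks in each list, in bp from the WT summit, with black lines at the summits and grey shading for the window examined. The bloto peak lies inside the WT peak, its summit is 11 bp from the WT summit, and no control peak was called.

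The bloto peak lay entirely within the WT peak. It began 171 bp after the WT start and ended 141 bp before the WT end, and so covered 68.0% of the WT peak. Both peaks were nearly symmetric. The WT summit had 482 bp of peak on its left and 493 bp on its right, and the bloto summit 322 bp and 341 bp. The summits were 11 bp apart and the midpoints 15 bp apart. The other 165 shared sites, those called in both tagged lines, had a median summit distance of 19 bp (quartiles 6 and 43 bp), and 54 of them a smaller one than ZNF335. At these sites the bloto peak had a median of 0.57 of the WT width, against 0.68 here, and 59 of 165 sites had a higher share. Summit positions and widths have no replicate error.

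The ChIP reads counted at each summit, taken as extended by the peak caller, were worked out from the authors' fold and p-value together. At the ZNF335 promoter 89 WT reads and 68 bloto reads were counted at the summit. For WT this was 3.42 times the list's median of 26 reads, and for bloto 2.06 times the median of 33. By reads the site therefore lay near the top of the WT list and at the top of the bloto list. In WT only 2 peaks had more reads, chr17:45000168-45000706 with 97 and chr19:51307615-51308312 with 92, and chr6:116892217-116892941 had the same number. In bloto no peak had more, and the next, chr1:62902407-62902688, had 58. Counting error limits this order. The exact Poisson 95% interval of the 89 WT reads, 71.5 to 109.5, held 33 other WT peaks, and that of the 68 bloto reads, 52.8 to 86.2, held 12 other bloto peaks. The remaining 600 WT and 161 bloto peaks had fewer reads than these intervals, and none had more. The intervals cover counting error only. They make no allowance for the summit being chosen as the highest point of its peak.

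By fold the site ranked lower than by reads in both lists. It was 19th of 634 WT peaks, so that 3.00% of the list lay at or above it (exact Clopper-Pearson 95% interval 1.81% to 4.64%). In bloto it was 7th of 174 peaks, which is 4.02% (1.63% to 8.11%). These intervals treat the peaks of a list as independent draws and cover neither counting error nor replicate error of the rank. By −log10 p the site was 6th in WT and 1st in bloto. By width it was 12th in WT, at 976 bp against a median of 286.5 bp, and 9th in bloto, at 664 bp against 342.5 bp. The fold divides the reads by the local background, which was above the median at this site in both lists. In the units of the list, the WT background was 3.00 against a median of 2.34, with 41.5% of the peaks at or above it, and the bloto background was 3.19 against 2.62, with 25.9% at or above it. All 18 WT peaks with a higher fold had a lower background, from 1.31 to 2.77, and 17 of them had fewer reads, with a range of 56 to 92 over the 18. The first by fold, chr19:3626622-3627319, had 87 reads over a background of 1.46 and a fold of 30.7. Conversely, chr6:116892217-116892941, with the same 89 reads as ZNF335, had a background of 6 and a fold of 11.0.

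**Figure D2:**
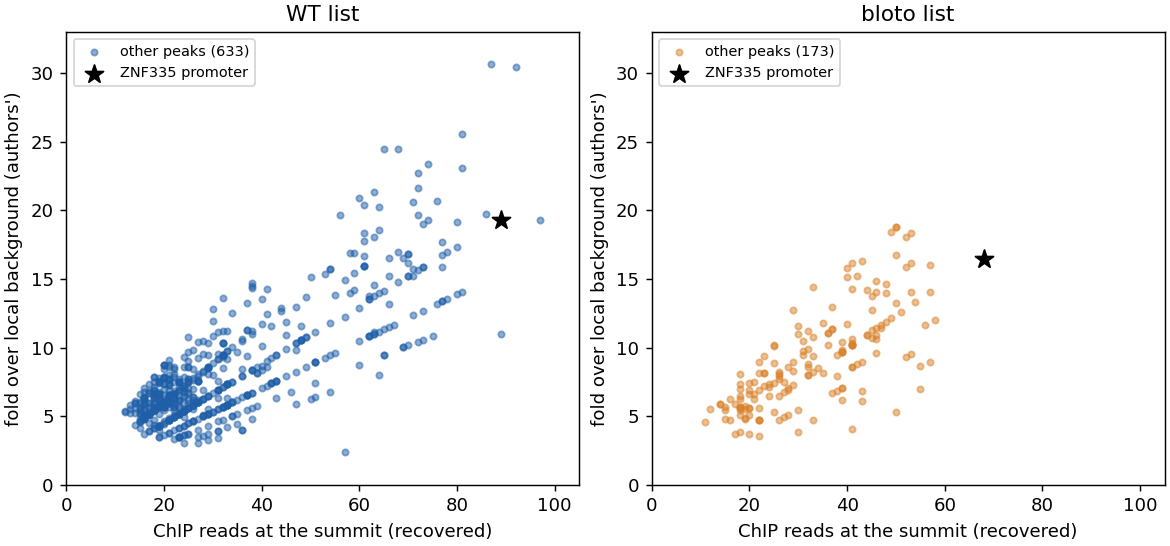
Reads at the summit against the authors' fold for every peak of the WT list (left) and the bloto list (right), with a star for the ZNF335 promoter. In WT the star, at 89 reads and a fold of 19.3, has 2 peaks to its right and 18 above it; in bloto it stands alone at 68 reads, with 6 peaks above it.

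The sites next to ZNF335 in the order of fold were close to it in value. Just above it in WT were chr17:73201101-73202167, chr6:133135223-133135876 and chr6:5260920-5262166, with folds of 19.8, 19.7 and 19.6. Just below it were chr1:44412044-44412781, chr17:45000168-45000706 and chr11:66206098-66206644, with 19.3, 19.3 and 19.2. Their reads ranged from 56 to 97, so like folds covered unlike read numbers. In bloto the peaks just above had folds of 18.4, 18.1 and 16.7, and those just below 16.3, 16.2 and 16.2. These 6 bloto peaks had 41 to 53 reads, against 68 at ZNF335.

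A bloto peak was called at this site, as at the other WT sites with as many reads. Over the whole list 26.2% of WT peaks overlapped a bloto peak, and 98.9% of bloto peaks overlapped a WT peak. The pair at ZNF335 also passed a reciprocal overlap of at least 50% and a summit distance of at most 100 bp. Most of the other 165 shared sites passed the distance limit too, with an upper quartile of 43 bp. How many passed the overlap limit is not given here. Each of the 12 WT peaks with the most reads, ZNF335 among them, had a bloto peak.

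The bloto signal at the ZNF335 promoter came to 0.71 of the WT signal at equal depth, a higher share than at most other shared sites. The bloto ChIP library was taken as 1.07 times as deep as the WT library, from the lowest background of each list (3 bloto and 13 WT peaks). This holds only if that background is the genome-wide one in both lists, with the same read extension. At WT depth the 68 bloto reads amount to 63.6. After subtraction of the local background, 85.5 WT reads and 60.6 bloto reads remained, which gives the share of 0.71. At the other 165 shared sites this share had a median of 0.54 (interquartile range 0.46 to 0.62, range 0.24 to 0.95). It was lower than at ZNF335 at 146 sites and higher at 19. Only the 26.2% of WT peaks with a called bloto peak have a share, so these values leave out the other WT peaks. The counting interval of the share at ZNF335 was 0.499 to 0.996 (exact binomial, 95%, background held fixed), which includes the median of the other sites and ends just below equal signal. Without the depth scaling the share was 0.76 with an interval of 0.534 to 1.07, which includes equal signal, so a lower bloto signal at this site was not separable from counting error under that setting. The higher share at this site is therefore within counting error of the typical shared site, and it has no replicate check.

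Among the 113 shared sites with at least 50 WT reads, the share at ZNF335 ranked 11th, with 10 of the 112 others above it. The other 11 shared sites with 80 to 97 WT reads had 43 to 57 bloto reads and shares of 0.49 to 0.65, with a median of 0.58, and all 11 lay below 0.71. The 2 sites with more WT reads than ZNF335 each had 53 bloto reads and shares of 0.51 and 0.53. The 19 sites with a higher share than ZNF335 all had fewer WT reads, from 20 to 70 with a median of 57. The closest of them in bloto reads was the site at chr1:62902245-62903052, with 70 WT reads, 58 bloto reads and a share of 0.79. A WT site has a share only if a bloto peak was called there, so weak WT sites without one are absent from this comparison.

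**Figure D3:**
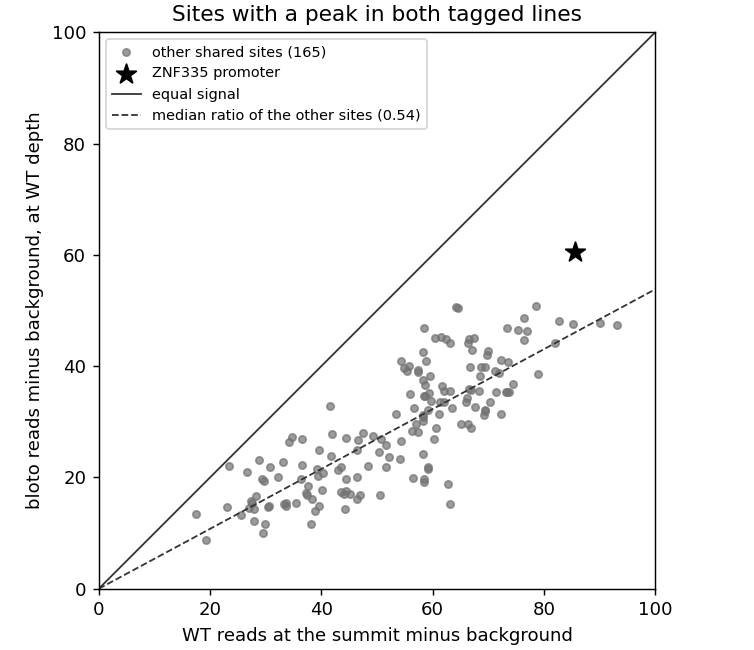
Background-subtracted reads at the summit in WT (x axis) and in bloto at WT depth (y axis) for the shared sites. The star for ZNF335, at 85.5 and 60.6 reads, lies above the dashed line of the median share of 0.54 and below the solid line of equal signal. The other 165 sites also lie below the solid line.

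The sites most like ZNF335 by their reads in the 2 libraries (distance of log2 reads) were spread over 4 other chromosomes. The nearest was chr17:73201101-73202167, with 86 WT and 57 bloto reads, and its peaks were 1067 and 629 bp wide with summits 1 bp apart. It was followed by chr17:42976435-42977219 with 81 and 57 reads, chr1:231663693-231664404 with 81 and 56, chr19:3626622-3627319 with 87 and 54, and chr11:66206098-66206644 with 80 and 55. All 5 had fewer reads than ZNF335 in both libraries, and their bloto shares ran from 0.56 to 0.65. Likeness here is over 2 libraries only.

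On chromosome 20 the ZNF335 site was the strongest WT site, and no other peak was called within 4834 kb of it. The WT list had 17 peaks on this chromosome and the bloto list 3. The 16 other WT peaks had 16 to 77 reads with a median of 20.5, folds of 3.69 to 15.2 and widths of 152 to 856 bp, all below the 89 reads, the fold of 19.3 and the 976 bp at ZNF335. The nearest WT peaks were chr20:39765565-39765805, 4834 kb to the left, with 20 reads, and chr20:62169128-62169425, 17568 kb to the right, with 37 reads. Wide gaps were not particular to this site, as no WT peak was called between positions 18774946 and 30157447 either. The RefSeq gene order of GRCh38.p14 places the protein-coding genes PCIF1 and MMP9 on either side of ZNF335. The other 2 shared sites of the chromosome were chr20:36155952-36156697, with 71 WT and 50 bloto reads, and chr20:18447530-18448385, with 77 and 39. Their bloto shares were 0.67 and 0.43, against 0.71 at ZNF335. In bloto the peak at chr20:36156159-36156740 had the higher fold, 18.8, over a background of 1.71, although it had fewer reads than the 68 at ZNF335.

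The ZNF335 peaks remained under thresholds that removed most of the lists. At a −log10 q of at least 20, 155 WT and 79 bloto peaks were left, and at 40, 76 and 14. At 50, 39 WT peaks were left and the ZNF335 peak was the single bloto peak. The second bloto peak by −log10 q had 49.2, against 55.4 at ZNF335. At 70, 6 WT peaks were left, ZNF335 the last of them with 70.6, and the highest WT value was 91.6. The q-values were adjusted within each list, so a threshold does not mean the same in both.

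Genes whose products work with ZNF335 were listed for comparison: ASH2L, RBBP5, WDR5, DPY30 and the KMT2 methyltransferases of histone methyltransferase complexes, and the co-regulators NCOA6, HCFC1, EMSY and CCAR2. Their peaks could not be looked up, because no hg19 annotation was used here and the lists carry no gene names. Of the 12 genes, 7 were matched in RefSeq's promoters. Their 250 upstream bases had a GC content of 46.8% to 92.0% and 2 to 48 CpG dinucleotides, a range that includes the 56% and 16 of ZNF335. Of the words found at ZNF335, TATAAA and TGACGTCA were in 0 of the 7 (10.7% and 1.65% of all promoters) and the ETS word in 2 (14.5%). Of the words not found at ZNF335, the GC box was in 4 (42.6% of all promoters), the CCAAT box in 1 (32.0%) and TGCCTG in 1 (20.2%). No test was made on these counts.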

How the data were processed

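The data are 1 deposited peak list per ChIP library. The submitters' processing notes name CASAVA 1.8.2, cutadapt 1.4.1, BWA, SAMtools, MACS2 and the build hg19, with no roles or order; the peak cutoff and the matched inputs are not stated there. The deposited columns used are the authors' fold (a ratio to local background), the −log10 of the p-value, the −log10 of the q-value and the summit offset. The deposited score is 10 times the −log10 q without its decimals. Positions are counted from 1.

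Reads at the summit came from fold, (pileup + 1)/(background + 1), and p, taken as the Poisson tail above the whole part of the pileup. WT pileups were multiples of 0.856 in 634 of 634 peaks and bloto pileups were whole in 174 of 174, within 0.0001 of the −log10 p. In simulated lists of 300 peaks, built with the same formulas, 100% of the reads were recovered. This checks the arithmetic only, not whether the formulas hold for the deposited lists. The simulated backgrounds spanned less than those of the lists, which reached 20 in WT and 9.36 in bloto. Library depths were compared by the lowest background of each list (13 WT and 3 bloto peaks), taken as genome-wide with 1 genome size and read extension for both. Sharing meant an overlap of at least 1 bp, and of several bloto peaks over a WT peak the one with the most reads was used. Intervals of shares are exact Clopper-Pearson.

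Named beside ZNF335 are the 3 peaks above and below it by fold, the 5 sites nearest in reads and its neighbours on the chromosome; peaks named for their reads, share or background were picked after their values were seen. The site and the lists were chosen with earlier results of these data known. Alternatives varied the ranking column, the list, the window, sharing, depth and background. Python 3.11.15, numpy 2.4.6, pandas 2.3.3, scipy 1.17.1 and matplotlib 3.10.9 were used.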

Additional observations from a re-analysis of the deposited data

How the results depend on the processing

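Of 25 values recomputed under alternatives, 18 stayed the same (within the 95% interval where there is one, and no change in any number of peaks) and 7 moved. For the share of the list at or above the peak, that interval only sets the limit for this label and is no error of the rank. Several of the 18 values could hardly have moved, so their number is no measure of robustness. With −log10 q of 70.6 and 55.4, both peaks pass a minimum of 5, and their summits lie well inside the window. The bloto peak covers 68.0% of the WT peak from within, with summits 11 bp apart, so both stricter sharing rules were met beforehand. The bloto share was judged against a wide interval, 0.499 to 0.996. The share of the list at or above the ZNF335 peak, 3.00% for WT and 4.02% for bloto by fold, was 0.946% and 0.575% by −log10 p and 0.631% and 0.575% by reads. Among peaks of chromosome 20 alone it was 5.88% (1 of 17) for WT and 66.7% (2 of 3) for bloto. Among WT peaks shared with bloto it was 11.4%. The smaller denominators follow from fewer peaks; for the other moves the local background is given beside the result. The number of peaks in the window and their sharing did not change. The distance between the peaks, 11 bp by summits and 15 bp by midpoints, was also counted as the same, although it has no interval. The bloto share of the WT signal (0.70 to 0.76) stayed, but without depth scaling the interval of that share, 0.534 to 1.07, included equal signal. No paired analysis was possible because there is 1 library for each line, and no replicate could be left out. How deeply the control was sequenced is unknown.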
